A study of Mus musculus with 96 samples.

Results

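The genes described here encode the machinery of oxidative phosphorylation, and they sit on separate genomes. They were picked from the gene table by symbol: the Ndufa, Ndufb, Ndufc, Ndufs and Ndufv genes, the Sdh genes Sdha to Sdhd, the Uqcr genes and Cyc1, the Cox4 to Cox8 genes, the Atp5 genes, and the mitochondrially encoded mt-Nd, mt-Co, mt-Cytb and mt-Atp genes, without pseudogenes and without the Ndufaf assembly factors. This gave 99 of the 49466 rows, 86 of them nuclear and 13 mitochondrially encoded, and every one had an entry under the same ID in the GENCODE M21 annotation. Of the 99 genes, 90 reached 10 CPM (reads of a gene per 1000000 reads of the gate) in at least 1 gate, and the other 9 did not. Some rows follow the symbol rule without encoding a subunit of the complex they are counted with. Atp5sl, also called Dmac2, is known for the assembly of complex I, and Ndufa4 is now placed with complex IV, where it was counted.

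Complexes I to IV of the inner mitochondrial membrane pass electrons to oxygen, and all of them except complex II pump protons as they do so. Complex V, the ATP synthase, uses the proton gradient to make ATP. Complex II is built wholly from nuclear genes, while the other complexes each need subunits from both genomes. Erythroid progenitors rely on mitochondria for heme synthesis and for division, and the organelle is removed late in red cell maturation, after the stages studied here.

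The cells came from the livers of C57/Bl6J mouse embryos at day 14.5 and were sorted singly into 1 plate of 96 wells for Smart-seq2, a full-length library method primed on poly(A) tails. The plate held 24 cells of each of 4 gates set on Kit, CD71 and CD24 after depletion of other lineages: BFUE (burst-forming erythroid progenitors), Intermediate_25-35 and Intermediate_50-60 (cells with 25 to 35% and 50 to 60% of the CD71 and CD24 signal) and CFUE (colony-forming erythroid progenitors). The gates follow each other in that order, and the labels name no treatment and no genetic change in any of them. No animal, litter or pool is named in the labels. Each gate is therefore 1 sample without a replicate, since cells of a gate are not replicates of it. No test of significance could be made, and the intervals given cover counting error only. Fewer transcripts of a gene in each cell and a smaller share of cells with it cannot be told apart in a gate's sum, which is why the values of single wells stand beside the sums.

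In 91 wells with at least 50000 reads (23 BFUE, 21 Intermediate_25-35, 24 Intermediate_50-60 and 23 CFUE wells) the depth ran from 947458 to 3785903 reads assigned to genes, with a median of 9363 genes per well. All 6 erythroid markers were above 10 CPM in every gate, and their summed level was 1915, 3155, 3586 and 4191 CPM along the 4 gates. Of 5 stem and multipotent markers, 4 passed 10 CPM in the BFUE gate, with sums from 0.594 to 2726 CPM in single wells, and none did in the other gates, where no well exceeded 48.05 CPM. Of 6 neutrophil and monocyte markers, 3 passed 10 CPM in the BFUE gate and 2 were at 0 there. In single BFUE wells their sum had a median of 76.5 CPM and a highest value of 6989 CPM. It was at most 49.1 CPM in a well of the other gates. The lymphoid, megakaryocyte and mast cell lists summed to 35.6, 117 and 11.1 CPM in the BFUE gate, with 3 of 5, 2 of 4 and 2 of 3 of their genes at 0. Hepatoblast genes, with none at 0, summed to 228, 83.3, 139 and 139 CPM along the gates, and at most 1.73 CPM of macrophage genes was found in any gate. In 8 BFUE wells Cd34, a gene of stem and multipotent cells, reached 100 CPM or more, and the main results are also given without these wells. CFUE wells A10 and D10 also stood apart: 7422 and 6361 genes had a read there, against 8246 or more in every other kept well, and ribosomal protein genes took 112974 and 186199 CPM, against at most 74756 CPM elsewhere. The CFUE values that results turn on are therefore given with and without wells A10 and D10.

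The nuclear genes together were somewhat higher in CFUE than in BFUE cells. Their summed level was 25948 CPM in BFUE, 27747 CPM in Intermediate_25-35, 27311 CPM in Intermediate_50-60 and 30225 CPM in CFUE cells. The lowest, median and highest wells had 20112, 25765 and 30424 CPM in BFUE, 24753, 27799 and 30806 CPM in Intermediate_25-35, 24209, 27335 and 31120 CPM in Intermediate_50-60, and 25277, 28966 and 61375 CPM in CFUE. The highest CFUE values were those of wells D10 and A10 (61375 and 46621 CPM); without them the CFUE gate summed to 28638 CPM with a highest well of 31831 CPM, and the wells of all 4 gates overlapped. The ratio of CFUE over BFUE was 1.16 (95% counting interval 1.16 to 1.17), 1.10 without wells A10 and D10, and 1.05 when the 8 Cd34-high BFUE wells were left out as well.

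The mitochondrially encoded genes together were somewhat higher in CFUE than in BFUE cells too. Their summed level was 9694 CPM in BFUE, 9996 CPM in Intermediate_25-35, 10401 CPM in Intermediate_50-60 and 11994 CPM in CFUE cells, the last being 10512 CPM without wells A10 and D10. The median wells had 9491, 10020, 10308 and 10612 CPM along the gates, the last being 9999 CPM without wells A10 and D10. BFUE wells ran from 6558 to 13502 CPM. CFUE wells other than A10 and D10 ran from 7733 to 13654 CPM, so the wells overlapped. The ratio of the summed levels, CFUE over BFUE, was 1.24 (interval 1.23 to 1.24), 1.08 without wells A10 and D10, and 1.09 without the Cd34-high BFUE wells too. From gate to gate the ratios were 1.03 for Intermediate_25-35 over BFUE, 1.04 for Intermediate_50-60 over Intermediate_25-35 and 1.15 for CFUE over Intermediate_50-60, the last being 1.01 without wells A10 and D10. For the nuclear genes the same ratios were 1.07, 0.984 and 1.11, the last being 1.05 without those wells.

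The balance between the genomes differed little between gate sums, and single wells of each gate spread widely. A gate's sum pools 21 to 24 wells, so differences between sums cannot be weighed against those between single wells. The ratio of mitochondrially encoded to nuclear reads was 0.374 in BFUE, 0.360 in Intermediate_25-35, 0.381 in Intermediate_50-60 and 0.397 in CFUE cells, and 0.367 in CFUE without wells A10 and D10. Single wells ran from 0.224 to 0.522 with a median of 0.365 in BFUE, from 0.265 to 0.490 with a median of 0.356 in Intermediate_25-35, from 0.262 to 0.527 with a median of 0.369 in Intermediate_50-60, and from 0.246 to 0.631 with a median of 0.373 in CFUE. The 4 ranges overlapped over most of their length, and wells A10 and D10 held the only values above 0.6 (0.620 and 0.631). Across wells of a gate the summed levels of the genomes were weakly related. Spearman's rho between them was 0.04 over 23 BFUE, 0.34 over 21 Intermediate_25-35 and 0.19 over 24 Intermediate_50-60 wells, and -0.07 over the 21 CFUE wells other than A10 and D10, as a description of wells that share total depth as their divisor.

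**Figure D1:**
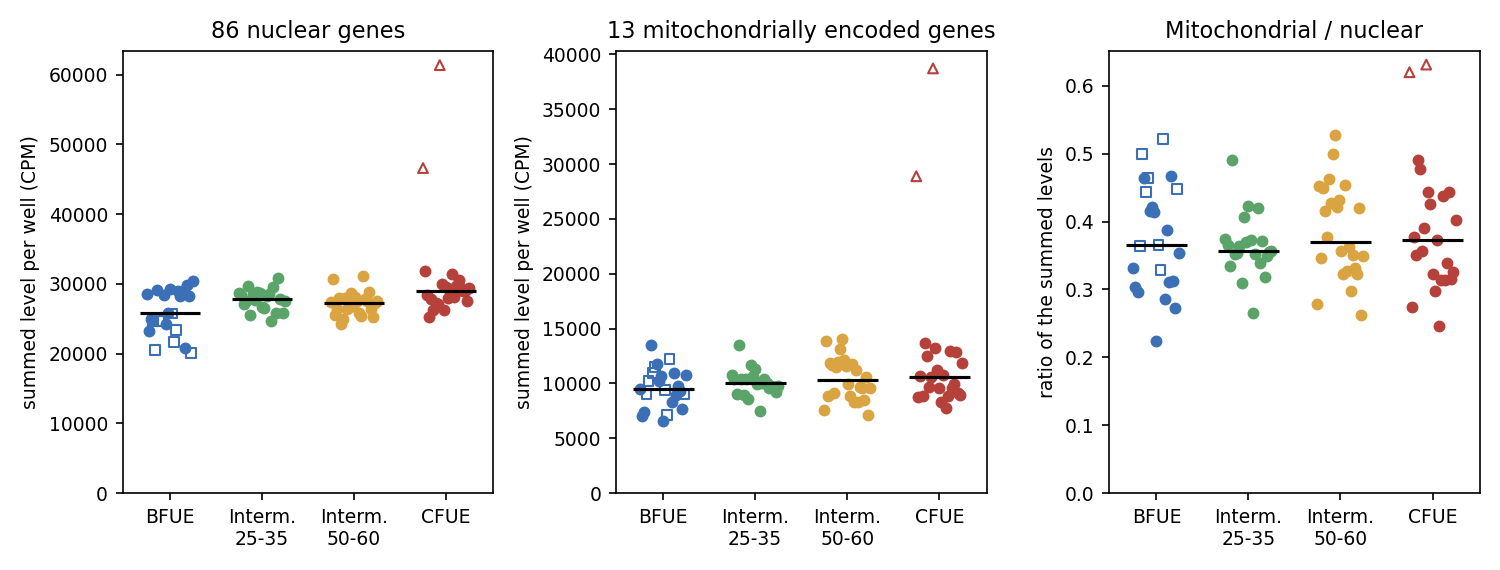
Summed level of the 86 nuclear and the 13 mitochondrially encoded genes and their ratio in each of 91 wells (y axes: CPM, CPM, ratio; x axes: gate). Bars are medians, open squares the 8 Cd34-high BFUE wells and open triangles CFUE wells A10 and D10, which lie above all other wells in every panel while the gates otherwise overlap.

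The position on the plate moved with this balance. In plate rows A to D the ratio of the summed levels was 0.400 in BFUE, 0.374 in Intermediate_25-35, 0.421 in Intermediate_50-60 and 0.451 in CFUE cells. The last value includes wells A10 and D10, which both lie in these rows. In plate rows E to H the ratio was 0.348, 0.347, 0.343 and 0.344 in the same order. The median well was higher in rows A to D in each gate, at 0.415 against 0.342 in BFUE, 0.368 against 0.351 in Intermediate_25-35, 0.429 against 0.340 in Intermediate_50-60, and 0.390 without wells A10 and D10 against 0.325 in CFUE. Both groups of rows hold cells of every gate, and within rows E to H the 4 gates ran from 0.343 to 0.348. Columns were not shared in this way, since each gate filled its own block of 3 plate columns. Any difference between gates is thus also a difference between columns, and the part of the column was not tested. The labels name no reason for a difference between rows, and none was tested.

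A ratio of 1.5-fold was used here to count a gene as higher or lower. With all wells, the share of nuclear members that were higher was near that of all genes. The share that were lower was below it. Between CFUE and BFUE cells, 11 of 79 measured nuclear genes were higher in CFUE by 1.5-fold or more and 1 was lower, while 13.7% of the 8701 measured genes were higher and 29.6% lower. The median log2 ratio was 0.24 for the nuclear genes and -0.14 for all measured genes. Without wells A10 and D10, 2 of 79 were higher and 2 lower, against 13.1% and 28.6% of all genes, with medians of 0.13 and -0.12. Without the Cd34-high BFUE wells too, 3 of 80 were higher and 1 lower, against 13.2% and 23.8%, with medians of 0.05 and -0.09. Of 11 measured mitochondrially encoded genes, 2 were higher by 1.5-fold with all wells and 0 without wells A10 and D10.

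Between neighbouring gates fewer members crossed that fold. In Intermediate_25-35 against BFUE cells, 2 nuclear genes were higher (Ndufs1 and Uqcrfs1) and 1 lower (Atp5sl), beside 10.1% and 24.3% of all genes. In Intermediate_50-60 against Intermediate_25-35 cells, 0 of 79 were higher and 0 lower, beside 7.34% and 9.27% of all genes. In CFUE against Intermediate_50-60 cells, 0 were higher and 0 lower as well, beside 7.98% and 9.7% of all genes, or 7.41% and 8.36% without wells A10 and D10. No mitochondrially encoded gene crossed the fold between neighbouring gates. The comparisons share gates, so they are not independent of each other.

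Complex I, which takes electrons from NADH and is the largest of the set with 36 nuclear genes, summed to 6505, 6893, 6779 and 7960 CPM along the gates. CFUE over BFUE was 1.22, 1.14 without wells A10 and D10, and 1.11 without the Cd34-high BFUE wells too. Complex II, which links the tricarboxylic acid cycle to the chain, summed to 2077, 2145, 1969 and 2073 CPM; its ratio of CFUE over BFUE was 0.998, but 1.07 with TMM or DESeq2 scaling and 0.910 without wells A10, D10 and the Cd34-high wells, so it is given no direction. Complex III, which hands electrons from ubiquinol to cytochrome c, had 3469, 4162, 4065 and 4557 CPM along the gates and a ratio of 1.31 for CFUE over BFUE. Its ratio was 1.22 without wells A10 and D10, above the other complexes, but 1.10 without the Cd34-high BFUE wells too, next to the 1.11 of complex I. Intermediate_25-35 over BFUE was 1.20 for the same genes.

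Complex IV, cytochrome c oxidase, summed to 4206, 4325, 4290 and 5006 CPM, and complex V to 9690, 10223, 10209.5 and 10628.5 CPM. CFUE over BFUE was 1.19 for complex IV and 1.10 for complex V, and 1.07 for each of them without wells A10 and D10. All 9 measured complex III genes had a ratio above 1, as did 31 of 36 in complex I, 2 of 4 in complex II, 11 of 13 in complex IV and 13 of 17 in complex V. Without wells A10 and D10 these counts were 9, 25, 2, 9 and 11. Without the Cd34-high BFUE wells too, 7 of 9 in complex III, 23 of 36 in complex I, 0 of 4 in complex II, 7 of 14 in complex IV and 9 of 17 in complex V were above 1. Over all 79 nuclear genes 66 were above 1, 56 without wells A10 and D10, and 46 of 80 without the Cd34-high BFUE wells too. With TMM scaling of all wells, which shifts every ratio by 0.11 on the log2 scale, 73 were above 1.

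**Figure D2:**
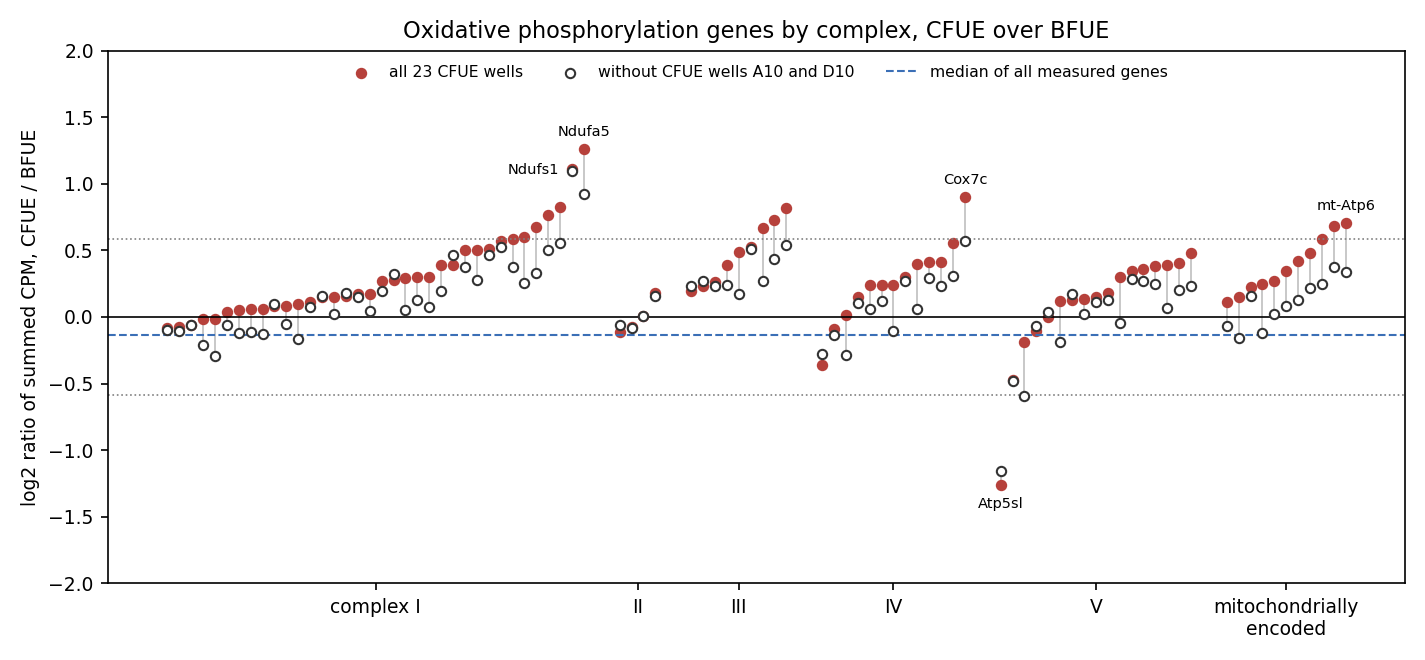
Log2 ratio of summed CPM in CFUE over BFUE cells for each measured gene, grouped by complex along the x axis, with all wells (filled) and without CFUE wells A10 and D10 (open). Dotted lines mark 1.5-fold and the dashed line the median of all measured genes with all wells. With wells A10 and D10 left out, Ndufs1 and Ndufa5 remain above the upper dotted line. Atp5sl and Atp5s then lie below the lower one.

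Per kb of transcript, the most abundant nuclear members came from the ATP synthase and from small subunits of complexes III and IV. This ranking depends on the 1 transcript whose length was used for each gene. Atp5g1, with 4715 bases, stood at 94.5 to 122 CPM per kb, although its CPM was near that of Atp5g3, with 723 bases. Atp5b, the catalytic beta subunit of the ATP synthase, had 1781, 1938, 1944 and 1947 CPM per kb along the gates, and Atp5g3, a gene for its ring-forming c subunit, 718, 795, 830 and 814 CPM per kb. Uqcr11 and Uqcr10, small subunits of complex III, had 958 to 1257 and 580 to 812 CPM per kb. Cox4i1 and Cox8a had 900 to 1108 and 861 to 955 CPM per kb in complex IV. The leading genes of complex II were Sdhd, a membrane anchor, at 481 to 622 CPM per kb, and Sdhb, the iron-sulfur subunit, at 341 to 402 CPM per kb. In complex I the accessory subunits Ndufb9 and Ndufb8 led, at 467 to 661 and 410 to 476 CPM per kb. Atp5b was also the steadiest gene from cell to cell in Intermediate_50-60, with a coefficient of variation of 8.22% over 24 wells, where the median nuclear gene had 21.5%. In the other gates the lowest value was that of another nuclear gene. It was Cox6b1 in BFUE (16.4%), Atp5a1 in Intermediate_25-35 (9.48%) and Ndufs7 in CFUE (15.4%).

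Ndufs1, the iron-sulfur subunit that receives electrons early in complex I, was more than 1.5-fold higher in CFUE than in BFUE cells in every setting tried. The gene lies at chr1:63143596-63176833 on the minus strand (GRCm38). It had 215 CPM in BFUE, 377 CPM in Intermediate_25-35, 385 CPM in Intermediate_50-60 and 465 CPM in CFUE cells. The lowest, median and highest wells were at 5.28, 217 and 482 CPM in BFUE, 157, 355 and 675 CPM in Intermediate_25-35, 182, 379 and 570 CPM in Intermediate_50-60, and 4.22, 433 and 850 CPM in CFUE. The median is higher in each later gate while the wells overlap, and wells D10 and A10 were the lowest and the highest of CFUE. CFUE over BFUE was 2.16 (interval 2.10 to 2.21), 2.14 without wells A10 and D10, and 1.86 without the Cd34-high BFUE wells too, and Intermediate_25-35 over BFUE was 1.75 (interval 1.70 to 1.80). The 11 alternative settings of the first comparison gave ratios of 1.86 to 2.41. The Cd34-high BFUE wells ran from 21.1 to 310 CPM and the other BFUE wells from 5.28 to 482 CPM. Of its exon bases, 6.16% overlap genes on the opposite strand, and whether counting used strand is not given in the sources used here.

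Ndufa5, a subunit of the matrix arm of complex I, lies at chr6:24518666-24528013 on the minus strand. It had 95.8 CPM in BFUE, 141 CPM in Intermediate_25-35, 157 CPM in Intermediate_50-60 and 230 CPM in CFUE cells, the last being 182 CPM without wells A10 and D10. The lowest, median and highest wells were at 23.5, 101 and 142 CPM in BFUE, 99.5, 145 and 183 CPM in Intermediate_25-35, 113, 143 and 246 CPM in Intermediate_50-60, and 87.5, 176 and 1866 CPM in CFUE, with the last value in well D10. The median CFUE well lay above the highest BFUE well, although the ranges overlap. CFUE over BFUE was 2.402 (interval 2.31 to 2.50), 1.90 without wells A10 and D10 and 1.62 without the Cd34-high BFUE wells too, and all 11 alternative settings gave at least 1.5-fold. The Cd34-high BFUE wells had 23.5 to 103 CPM and the other BFUE wells 60.1 to 142 CPM.

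The other 9 nuclear genes past 1.5-fold in CFUE against BFUE cells were below it when wells A10 and D10 were left out. They are Cox7c (1.87, and 1.49 without those wells), Ndufb2 (1.78 and 1.47), Uqcrq (1.76 and 1.45), Ndufb4 (1.70 and 1.42), Uqcrb (1.66 and 1.35), Ndufs4 (1.60 and 1.26), Uqcrh (1.59 and 1.20), Ndufb3 (1.52 and 1.19) and Ndufc1 (1.501 and 1.30). In each of them well D10 held the highest level of the gate. Uqcrh, the hinge protein of complex III, shows the size of this: its lowest, median and highest CFUE wells were at 218, 345 and 3217 CPM, and at 218, 343 and 473 CPM without wells A10 and D10, against 151, 299.6 and 468.7 CPM in BFUE wells. The reads of these wells also came from shorter transcripts, with a read-weighted mean length of 2191 and 1951 bases in A10 and D10 and at least 2612 bases in every other kept well; the part of length in these ratios was not tested. Cox7c, a small subunit of complex IV, was at 1.53 once the Cd34-high BFUE wells were left out too. Of the bases of Cox7c and Ndufb4, 58.3% and 40.2% are found at 99% identity or more in a pseudogene or paralog elsewhere, so their reads could be split.

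Atp5sl was the 1 nuclear gene lower in CFUE cells by 1.5-fold or more. It lies at chr7:25619414-25625551 on the plus strand. It had 58.95 CPM in BFUE, 22.6 CPM in Intermediate_25-35, 22.1 CPM in Intermediate_50-60 and 24.6 CPM in CFUE cells, with median wells at 46.1, 18.3, 22.8 and 20.6 CPM and at least 1 well at 0 in each gate. The step lay between BFUE and the next gate, and the wells of all gates overlapped. CFUE was 2.39-fold lower than BFUE (interval 2.21 to 2.59), and Intermediate_25-35 was 2.61-fold lower, or 1.68-fold lower than BFUE without the Cd34-high wells. The 8 Cd34-high BFUE wells ran from 1.40 to 156 CPM and the other BFUE wells from 0 to 126 CPM, and with wells A10 and D10 and the Cd34-high wells left out CFUE was 1.44-fold lower, which is under the fold used here. Atp5s, a regulatory protein of the ATP synthase, had 28.2 CPM in CFUE and 32.2 CPM in BFUE cells. Without wells A10 and D10 it had 21.3 CPM in CFUE cells and was 1.51-fold lower there, and without the Cd34-high BFUE wells too it was 1.67-fold lower.

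Uqcrfs1, the Rieske iron-sulfur protein of complex III, differed early. It had 252 CPM in BFUE, 384 CPM in Intermediate_25-35, 377 CPM in Intermediate_50-60 and 363 CPM in CFUE cells. Intermediate_25-35 over BFUE was 1.52 (interval 1.48 to 1.57) and CFUE over BFUE 1.44. The median wells were at 239, 380, 361 and 349 CPM, and the wells of Intermediate_25-35 (231 to 539 CPM) and BFUE (99.1 to 392 CPM) overlapped. Leaving out the Cd34-high BFUE wells, plate rows A to D or the well with most reads of the gene each brought the first ratio under 1.5, with a lowest value of 1.40.

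**Figure D3:**
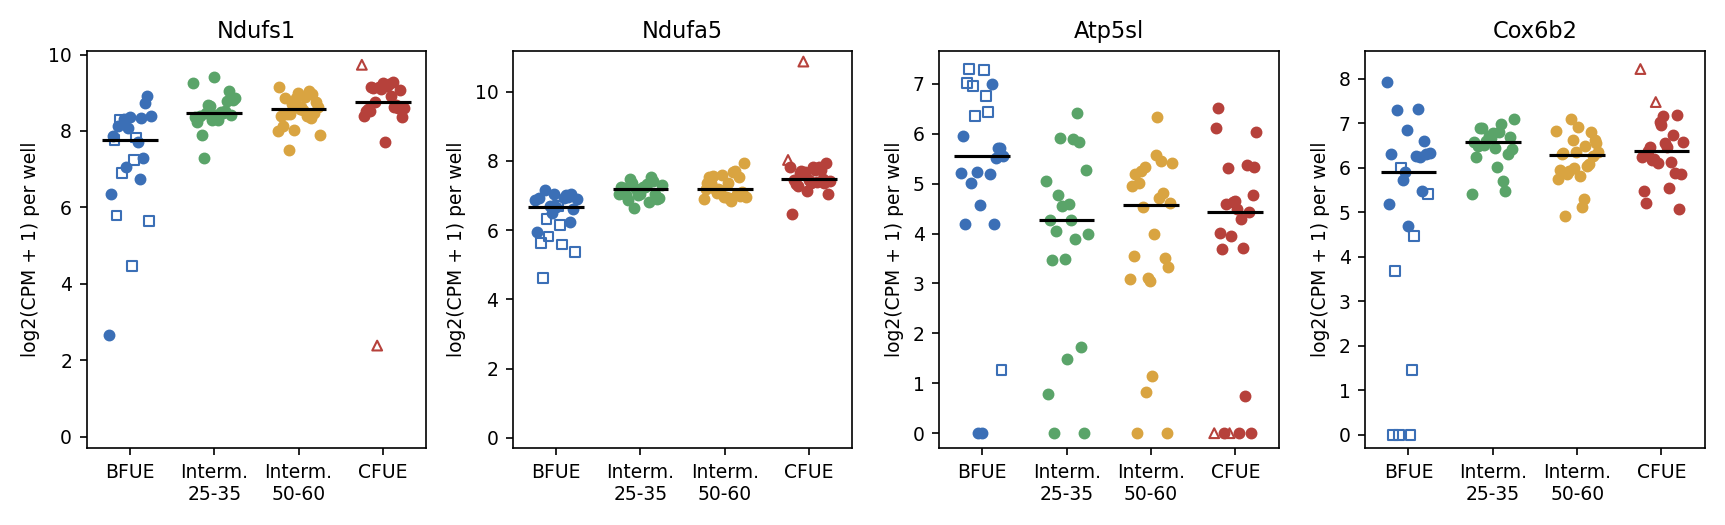
Level of 4 genes in each of 91 wells, as log2(CPM + 1), by gate. Bars are medians, open squares the Cd34-high BFUE wells and open triangles CFUE wells A10 and D10; Ndufs1 and Ndufa5 have higher medians in CFUE than in BFUE, Atp5sl is highest in BFUE, and Cox6b2 is at or near 0 in several Cd34-high BFUE wells.

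Several subunits exist as tissue isoforms, and in most pairs the ubiquitous form was the only one at an appreciable level. Cox4i1 had 689, 782, 795 and 848 CPM along the gates. Cox4i2, the form known from lung, had 127 reads in the BFUE gate, 102 of them in well H2 (71.5 CPM), 24 in well E3 (13.8 CPM) and 1 in well D3, and 0 reads in the other gates, where the floor of 3 counts stands at 0.0824 to 0.0966 CPM. Cox6a1 had 479, 475, 461 and 566 CPM. Cox6a2, the form of heart and skeletal muscle, had 299 reads in the BFUE gate and 1 read in all other gates together; 165 of these lay in well B1 (120 CPM), 68 in well F1 (42.0 CPM) and 65 in well C1 (43.4 CPM). The 5 BFUE wells that held all but single reads of Cox4i2 and Cox6a2 were all among the 8 Cd34-high wells, and no well had more than 1 read of both.

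The remaining restricted forms were at or near 0. Cox7a1, a muscle form, had 15 reads over all 91 wells, Cox8c had 6, and Cox7b2 and Cox8b, a muscle form, had 0 in every gate. Their counterparts were well expressed: Cox7a2 had 262, 284, 286 and 385 CPM, Cox7b 279, 276, 285 and 368 CPM, and Cox8a 474, 515, 477 and 525 CPM along the gates. Cox7a2l, a relative of Cox7a2, had 175, 139, 148 and 137 CPM. It was 1.28-fold lower in CFUE than in BFUE cells, where Cox7a2 was 1.47-fold higher. Without wells A10 and D10 these were 1.21-fold lower and 1.24-fold higher. Ndufa4 had 452, 350, 363 and 457 CPM, the last being 371 CPM without wells A10 and D10. Ndufa4l2, a hypoxia-induced relative, had 8.17, 4.73, 9.12 and 8.88 CPM, with reads in 4, 7, 14 and 11 wells of the gates and a highest well of 82.1 CPM in CFUE.

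Cox6b2 was different. It is known as the testis form of a subunit that caps complex IV, and it lies at chr7:4751792-4753094 on the minus strand, with no exon overlap with another gene and no near-identical copy. Cox6b2 had 70.3 CPM in BFUE, 92.8 CPM in Intermediate_25-35, 77.1 CPM in Intermediate_50-60 and 93.7 CPM in CFUE cells, or 82.7 CPM in CFUE without wells A10 and D10. Per kb it reached 160 CPM in CFUE and 120 CPM in BFUE cells, where the ubiquitous Cox6b1 had 836 and 709 CPM. It was read in every well of the later gates and in 20 of 23 BFUE wells. The lowest, median and highest wells were at 0, 58.8 and 242 CPM in BFUE, 41.7, 94.4 and 136 CPM in Intermediate_25-35, 29.004, 77.5 and 136 CPM in Intermediate_50-60, and 32.8, 81.6 and 297 CPM in CFUE. The Cd34-high BFUE wells ran from 0 to 63.1 CPM, with a read in 5 of 8, and the other BFUE wells from 24.8 to 242 CPM. CFUE over BFUE was 1.33 (interval 1.27 to 1.40), 1.17 without wells A10 and D10 and 0.871 without the Cd34-high wells too, so its direction rests on those wells.

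The genes Atp5g1, Atp5g2 and Atp5g3 encode the same mature c subunit with different targeting peptides. Atp5g1 had 445.5, 573, 532 and 572 CPM along the gates, Atp5g2 80.2, 68.6, 63.3 and 57.8 CPM, and Atp5g3 519, 574, 600.1 and 588 CPM. Atp5g2 was lower in each later gate, 1.39-fold lower in CFUE than in BFUE cells with or without wells A10 and D10, while Atp5g1 was 1.28-fold and Atp5g3 1.13-fold higher. Without wells A10, D10 and the Cd34-high wells Atp5g1 was at 1.005. Of the Atp5g2 transcript, 88.2% is found in a pseudogene. The wells of Atp5g2 overlapped between CFUE (29.8 to 88.5 CPM) and BFUE (50.1 to 107 CPM).

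**Figure D4:**
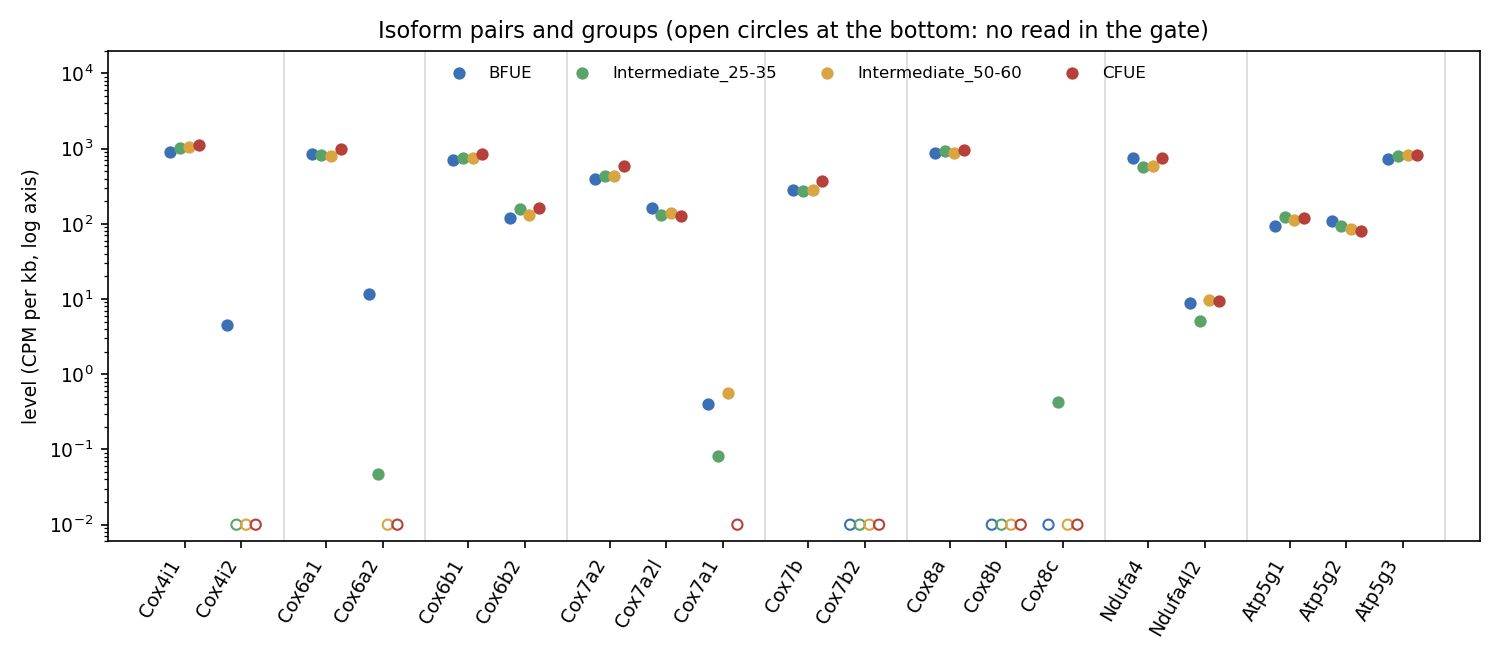
Level per kb of transcript of isoform pairs and groups in the 4 gates (log axis, CPM per kb). Open circles at the bottom mark gates without a read; Cox6b2 is the 1 tissue form of its kind above 100 CPM per kb in every gate.

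The 13 mitochondrially encoded genes are cut from long shared transcripts, and their levels per kb, as means of the gates, ran from 7.05 to 2672 CPM. mt-Co1, the catalytic subunit of complex IV, had 3384, 3263, 3513 and 3952 CPM along the gates, mt-Cytb of complex III 2866, 2936, 2962 and 3464 CPM, and mt-Nd1 of complex I 1955, 2336, 2390 and 2728 CPM. Of the reads of all 13 genes, mt-Co1 took 32.6 to 34.9%, mt-Cytb 28.5 to 29.6% and mt-Nd1 20.2 to 23.4% in the 4 gates. Next came mt-Nd5 (600 to 677 CPM), mt-Nd4 (497 to 671 CPM), mt-Nd2 (196 to 293 CPM) and mt-Nd6 (49.3 to 86.8 CPM). The genes mt-Co3 (33.9 to 47.9 CPM), mt-Co2 (16.7 to 24.8 CPM), mt-Atp6 (17.3 to 28.3 CPM), mt-Nd3 (9.17 to 14.7 CPM), mt-Atp8 (1.84 to 2.76 CPM) and mt-Nd4l (1.81 to 2.37 CPM) were the low ones.

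Of these 6 low genes, 5 have a near-identical nuclear copy along their whole length. They are mt-Co2, mt-Atp6, mt-Co3, mt-Nd3 and mt-Nd4l, which are covered over more than 95% of their length at 99% identity or more by pseudogenes that GENCODE places side by side on chromosome 1 (GRCm38, minus strand). These 5 had 7.05 to 53.8 CPM per kb as a mean of the gates and 0.943% of the reads of all 13 genes. The copies also cover 63.6% of mt-Nd4 and 31.3% of mt-Co1. The other low gene, mt-Atp8, had 11.01 CPM per kb and no annotated copy, and it shares 43 of its 204 bases with mt-Atp6. It lies between mt-Co2 and mt-Atp6. On chromosome 1 the copy of mt-Atp6 ends at 24614651 and that of mt-Co2 starts at 24614885. Copies without an annotation were not searched for, there or elsewhere. The other 5 genes without an annotated copy had 130 to 2672 CPM per kb.

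The sequences show how alike the genomes are at these genes; each is the sense strand, 5′ to 3′, from the GENCODE M21 transcripts, with capitals at bases that differ between the mitochondrial gene and its copy. The windows of mt-Co3 (chrM:8607-8666) and of its copy Gm28437 (chr1:24613912-24613971) are the same in every base, as are all 783 aligned bases.
mt-Co3: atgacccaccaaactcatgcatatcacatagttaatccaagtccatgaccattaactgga
Gm28437: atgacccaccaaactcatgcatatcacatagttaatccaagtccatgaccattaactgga
In mt-Nd3 (chrM:9459-9518) and its copy Gm28438 (chr1:24613060-24613119), the 345 aligned bases hold 1 substitution, T3C, counted from the first base of the mt-Nd3 transcript.
mt-Nd3: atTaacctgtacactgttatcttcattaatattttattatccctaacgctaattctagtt
Gm28438: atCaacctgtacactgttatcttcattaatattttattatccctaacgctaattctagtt

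The rows of the copies held reads of their own. Gm28437 had 6017 reads over the kept wells and mt-Co3 5997, Gm10925 had 4171 and mt-Atp6 3062, and Gm28661 had 2411 and mt-Co2 2967. Gm10222 had 620 reads and mt-Nd4l 296, while Gm28438 had 200 reads and mt-Nd3 1675. The mitochondrial gene thus had fewer reads than its copy in 3 of these 5 pairs. With the copy's reads added, mt-Co3 had 95.5 CPM in CFUE and 87.7 CPM in BFUE cells, a ratio of 1.09, and mt-Atp6 had 64.99 CPM in CFUE and 42.9 CPM in BFUE cells, a ratio of 1.52. These joint values include wells A10 and D10 and were not worked out without them. Without the copy's reads, mt-Atp6 fell below 1.5-fold when those wells were left out. How the authors' counting treated reads that map to several places is not given in the sources used here, and its part in these levels was not tested.

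The genes also differed in their ratios between gates. In CFUE over BFUE cells the 13 genes ran from 1.08 (mt-Nd5) to 1.64 (mt-Atp6), and mt-Nd3 was at 1.60. Without wells A10 and D10, 8 of the 11 measured genes were above 1, from mt-Cytb at 1.02 to mt-Nd3 at 1.30, with mt-Atp6 at 1.27 and mt-Nd1 at 1.17. The other 3 were then lower in CFUE, with ratios of 0.897 for mt-Co3, 0.919 for mt-Co2 and 0.954 for mt-Nd5. mt-Nd1 ran from 1429 to 3164 CPM over the 21 CFUE wells other than A10 and D10, with a median of 2172 CPM, and from 1038 to 3725 CPM over 23 BFUE wells, with a median of 1812 CPM, so the wells overlapped. mt-Co1 had the lowest coefficient of variation of the 11 measured genes over all wells of each gate, at 17.3, 13.8, 18.97 and 29.6% along the gates. In CFUE without wells A10 and D10 it had 21.1%, above the 15.4% of mt-Cytb. mt-Nd6, the 1 gene read from the opposite strand, had 49.3 CPM in Intermediate_25-35 and 68.4 CPM in BFUE cells, a ratio of 0.720, or 0.821 without the Cd34-high wells; without a known strand setting its reads cannot be told apart from antisense ones.

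**Figure D5:**
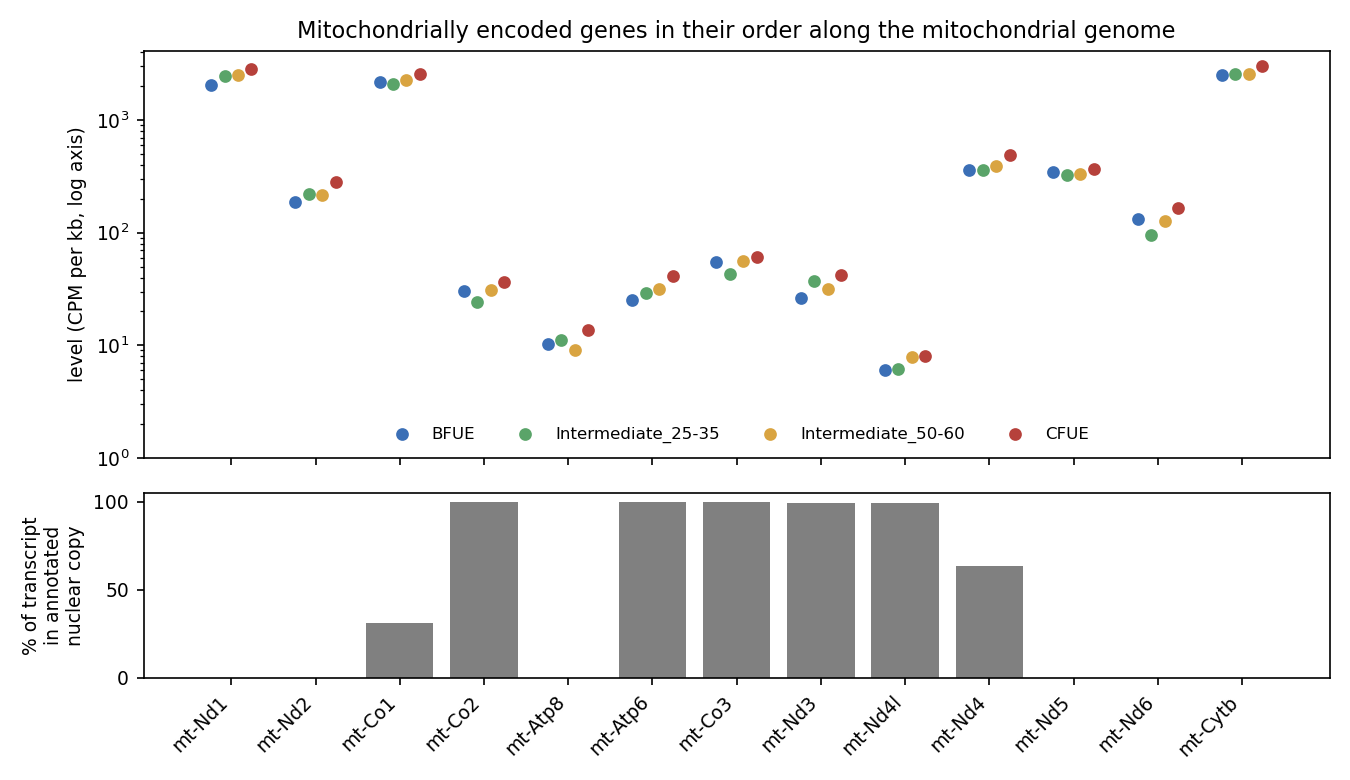
Upper panel: level of the 13 mitochondrially encoded genes in the 4 gates (log axis, CPM per kb), in their order along the mitochondrial genome. Lower panel: percent of each transcript found at 99% identity or more in an annotated nuclear copy; genes covered over nearly their whole length lie at the low end of the upper panel.

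Promoters of the nuclear genes were searched on both strands for sites known from mitochondrial genes, in windows of 250 bases before to 50 after the start (RefSeq, GRCm38.p6), with 70 of 86 genes matched. For comparison, all 27025 reference genes with such a window were searched, whether or not they were read in these cells. The NRF1 letters GCGCATGCG were found in 8 of the 70 and in 1.95% of the 27025. The Ets letters CCGGAAG, to which GABP binds, were in 16 of 70 and 9.93%, and the YY1 letters AAGATGGCG in 8 of 70 and 1.64%. The genes with the NRF1 letters include Uqcrc1, Cox6a1 and Atp5g2. Those with the YY1 letters are Atp5j, Atp5j2, Atp5sl, Ndufa9, Ndufc1, Ndufs4, Ndufs6 and Ndufs7. For each motif the holder with the highest CFUE level is shown over 80 bases, with the match in capitals. The windows are Uqcrc1, a core protein of complex III (chr9:108936618-108936697, plus strand, where matches on both strands overlap), Sdhd (chr9:50603856-50603935, minus strand) and Atp5j, coupling factor 6 of the ATP synthase (chr16:84835025-84835104, minus strand).
Uqcrc1: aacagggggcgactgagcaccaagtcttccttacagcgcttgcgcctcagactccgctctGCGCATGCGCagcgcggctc
Sdhd: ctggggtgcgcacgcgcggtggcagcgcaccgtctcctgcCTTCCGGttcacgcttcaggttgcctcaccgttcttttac
Atp5j: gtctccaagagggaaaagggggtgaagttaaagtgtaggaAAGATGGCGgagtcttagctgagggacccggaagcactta
These matches describe letters in a window and do not show binding.

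Genes that build, supply or regulate the chain were described in the same way, and their counts stand beside the 13.7% of all measured genes higher and 29.6% lower in CFUE than in BFUE cells. Of 48 listed assembly factors of the complexes, 44 were measured in CFUE and BFUE cells, 6 of them higher and 3 lower by 1.5-fold in CFUE; the median log2 ratio was 0.16. Without wells A10 and D10, 2 were higher and 3 lower, with a median of 0.13. Without the Cd34-high wells too the counts were 3 and 4, and the median turned to -0.04. With all wells, Atpaf1, which helps assemble the ATP synthase head, had 14.1 CPM in CFUE and 27.8 CPM in BFUE cells. Uqcc1, needed for cytochrome b, had 83.8 CPM in CFUE and 141 CPM in BFUE cells, also with all wells. Ndufaf3 and Taco1 were 1.61-fold and 1.58-fold higher in CFUE, and 1.43-fold and 1.06-fold higher without wells A10, D10 and the Cd34-high wells.

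Of 20 genes that maintain and transcribe mitochondrial DNA or steady its mRNAs, 3 stood higher and 2 lower in CFUE, and the median log2 ratio was 0.09. Without wells A10 and D10 the counts were 3 and 1 with a median of -0.01, and without the Cd34-high wells too they were 0 and 2 with a median of 0.01. Slirp, which protects mitochondrial mRNAs, had 167 CPM in CFUE and 83.8 CPM in BFUE cells, and Mterf1a 17.7 CPM in CFUE and 7.96 CPM in BFUE cells, while Top1mt and Mterf2 were each 1.56-fold lower in CFUE. Without wells A10, D10 and the Cd34-high wells Slirp was 1.41-fold and Mterf1a 1.48-fold higher, Top1mt was 1.82-fold lower, and Mterf2 turned to 1.25-fold higher. Among 10 nuclear regulators, 6 were measured and 0 passed 1.5-fold, with a median log2 ratio of -0.12; Nrf1 had 137 CPM in CFUE and 124 CPM in BFUE cells, Gabpa 70.1 CPM in CFUE and 58.4 CPM in BFUE cells, and Pprc1 134.99 CPM in CFUE and 176 CPM in BFUE cells. Without wells A10, D10 and the Cd34-high wells Nrf1 turned to a ratio of 0.956, and Pprc1 was 1.53-fold lower in CFUE.

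Of 18 genes of the tricarboxylic acid cycle and pyruvate dehydrogenase, 2 exceeded the fold upward and 1 downward under each of the 3 choices of wells. The median log2 ratio was 0.26, 0.27 without wells A10 and D10, and 0.07 without the Cd34-high wells too. Idh2, the NADP-dependent isocitrate dehydrogenase of mitochondria, had 190 CPM in CFUE and 541 CPM in BFUE cells, a 2.84-fold lower level, which was 1.81-fold without wells A10, D10 and the Cd34-high wells. Cs, citrate synthase, had 884 CPM in CFUE and 491 CPM in BFUE cells with all wells. Idh3a and Dld were 1.53-fold and 1.47-fold higher, also with all wells. Of 15 measured carriers and ubiquinone synthesis genes, 3 were higher and 2 lower, with a median of 0.28 on the log2 scale; the counts were 2 and 1 without wells A10 and D10, with a median of 0.25, and 2 and 2 without the Cd34-high wells too, with a median of 0.08. Coq5, an enzyme of ubiquinone synthesis, was 1.74-fold higher and 1.79-fold without wells A10 and D10, and Higd1a was 1.70-fold and then 1.36-fold higher. Slc25a4, an adenine nucleotide carrier, was 1.66-fold and then 1.595-fold lower, and Coq2 1.60-fold and then 1.497-fold lower. The Cd34-high BFUE wells were included in the ratios of Coq5, Higd1a, Slc25a4 and Coq2. The mitochondrial rRNAs mt-Rnr2 and mt-Rnr1, which share the transcripts of the mRNAs, had 7803 CPM and 253 CPM in CFUE cells and 7396 CPM and 301 CPM in BFUE cells, ratios of 1.05 and 0.840. Their sum was 8055 CPM in CFUE and 7696 CPM in BFUE cells. Without wells A10 and D10 the CFUE sum was 7706 CPM.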

How the data were processed

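Gene counts of 96 single cells on 1 plate were used as deposited by the authors. Per the submitters' processing notes, reads were handled with STAR 2.4 and featureCounts on GRCm38; the sources used here do not give strand setting, annotation release or the handling of reads with several places. Members, lists, motifs and comparisons were chosen with earlier results of these data known. Header names were taken in order, since the header line holds 1 more cell than the data lines; 0 columns lacked a sample. Wells under 50000 reads were left out (5 wells). Counts were summed per gate and divided by the gate's total (CPM, 31059327 to 38184231 reads a gate). Ratios of gate sums carry exact conditional binomial (Clopper-Pearson) 95% intervals, checked on simulated counts, and cover counting error only, since PCR reads without molecular identifiers are not independent molecules. A gene was measured at 10 CPM in either gate, and a ratio of 1.5-fold was counted. With 1 sample a gate no test was made. Named genes are the 13 mitochondrially encoded genes, nuclear genes past 1.5-fold in CFUE against BFUE, all isoform groups, the 2 highest per kb in each complex and up to 4 per further list; Atp5s, Uqcrfs1, Nrf1 and the motif holders shown lie outside that rule and were named after their values were seen. Lengths are those of 1 GENCODE M21 transcript a gene (the longest tagged principal, else the longest coding one). Copies were searched with megablast (blastn 2.17.0) at 99% identity over 50 bases or more. Alternatives used edgeR 4.0.16 (TMM) and DESeq2 1.42.0 (size factors) for scaling only. No doublet removal was applied to sorted single cells.
Scripts ran under R 4.3.3 and Python 3.11.15 with scipy 1.17.1, pandas 2.3.3 and numpy 2.4.6.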

Additional observations from a re-analysis of the deposited data

Results flagged for a closer look

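The 5 wells with too few reads for the comparisons held 10596 to 16644 reads each, and the genes of oxidative phosphorylation were nevertheless found there. Summed nuclear genes stood at 24220 CPM in CFUE well C12, 20205 CPM in BFUE well D2, and 37311, 23216 and 22898 CPM in Intermediate_25-35 wells E5, G5 and H4. The kept wells other than A10 and D10 ran from 20112 to 31831 CPM, so 4 of the 5 lie within that range. The value of well E5 rests on 621 reads.

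Rows outside the gene set also held a signal: the nuclear copies of mitochondrial genes had 4171 reads (Gm10925), 6017 reads (Gm28437), 2411 reads (Gm28661) and 2380 reads (Gm29216) over the kept wells.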

How the results depend on the processing

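No paired analysis was possible because no test was made: each gate is 1 sample, and equal well numbers in the gates only name wells. For summed nuclear genes, CFUE over BFUE was 1.19 as a mean of wells, 1.25 with TMM or DESeq2 scaling, 1.23 in plate rows A to D, 1.11 in rows E to H or without Cd34-high wells, 1.10 without wells A10 and D10 and 1.05 without both. For mitochondrially encoded genes it was 1.30, 1.33 (TMM), 1.32 (DESeq2), 1.39, 1.09, 1.25, 1.08 and 1.09 in that order, and 1.27 without genes that have a nuclear copy. With the settings in the same order throughout, Intermediate_25-35 over BFUE was 1.07 (mean of wells), 1.12 (both scalings), 1.09, 1.05 and 1.02 for nuclear genes, and 1.05, 1.08 (both scalings), 1.02, 1.05, 1.04 and, without genes that have a copy, 1.08 for mitochondrial ones. Intermediate_50-60 over Intermediate_25-35 was 0.980, 0.993 (TMM), 0.991 (DESeq2), 0.974 and 0.994 for nuclear genes; for mitochondrial ones it was 1.05 with either scaling, 1.10 in rows A to D, 1.02 without genes that have a copy, and it turned to 0.982 in rows E to H. CFUE over Intermediate_50-60 was 1.13, 1.12 (TMM), 1.13 (DESeq2), 1.16, 1.06 and 1.05 for nuclear genes and 1.19, 1.17, 1.17, 1.24, 1.06, 1.01 and, without genes that have a copy, 1.16 for mitochondrial ones. The ratio of mitochondrial to nuclear reads was 0.400 and 0.348 in BFUE, 0.374 and 0.347 in Intermediate_25-35, 0.421 and 0.343 in Intermediate_50-60 and 0.451 and 0.344 in CFUE for rows A to D and E to H, 0.353 in BFUE without Cd34-high wells, 0.367 in CFUE without wells A10 and D10, and 0.363, 0.385 and 0.406 as means of wells in the 3 later gates. Nuclear genes higher in CFUE than in BFUE by 1.5-fold numbered 17 (mean of wells), 19 (TMM), 17 (DESeq2) and 21 (rows A to D, which hold wells A10 and D10). They numbered 2 without A10 and D10, 3 without Cd34-high wells too, and 2 at 2-fold. Lower ones numbered 3 (DESeq2), 3 (rows A to D), 2 (without A10 and D10) and 4 (no filter). The share of all genes past the fold was not worked out for the mean of wells, the scalings, rows A to D, 2-fold or no filter. The scalings raise the CFUE over BFUE ratio of every gene, by 0.11 (TMM) and 0.098 (DESeq2) on the log2 scale. Of the members past 1.5-fold in CFUE against BFUE, mt-Nd3 turned, to 0.986 in rows E to H; Ndufs1 and Ndufa5 stayed past the fold in all 11 settings and Atp5sl in 10. The causes were not tested. Leaving out wells A10 and D10 alone or with the Cd34-high wells, and the genes with a copy, was chosen after the data were seen. With 1 sample a gate, depth limits little; the unknown spread between animals limits every comparison.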
